A study of Homo sapiens with 18 samples.

Results

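The comparison described here is recovery against heat shock in SW620 cells, a human colon cancer line, in which LONP1 had been silenced. It was chosen by the library labels: the 3 libraries of silenced cells that recovered after heat were set against the 3 libraries of silenced cells collected after heat alone, 6 of the 18 libraries in the series. A gene was tested when it had more than 1 CPM (counts scaled to library size) in at least 3 of these 6 libraries, which held for 12439 of the 26485 genes in the count table. HS siLonp1 cells received small interfering RNA against LONP1 (siLonp1) and were held at 42 °C for 1 h. HS+REC siLonp1 cells received the same siRNA and the same heat and then spent 1 h at 37 °C. Values set beside these come from Ctrl siLonp1 cells kept at 37 °C, and from Ctrl, HS and HS+REC cells given a scramble siRNA with the same heat schedule. All 6 groups had 3 libraries, and RNA was read from polyadenylated transcripts by stranded paired-end sequencing. The study, which describes its replicates as independent and biological, was set up to ask how loss of LONP1 bears on transcription during heat and recovery. Silencing was by siRNA, so the cells retained part of their LONP1 transcript, and which of the study's siRNAs was used for sequencing is not given in the sources used here. The 6 libraries held between 39227695 and 45024299 counted reads, with a median of 40892174.5.

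Heat unfolds proteins, and cells answer by activating heat shock factor HSF1, which drives transcription of chaperones that refold or hold damaged proteins. The same stress switches on immediate early genes such as FOS and EGR1, whose short-lived transcripts are made and degraded quickly. When the temperature returns to normal the response is turned down in steps, while LONP1, an ATP-dependent protease of the mitochondrial matrix, belongs to the machinery that clears damaged mitochondrial proteins.

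LONP1 (chr19:5691834-5720452), the transcript targeted by the siRNA, was low in every silenced library. CPM are given on library sizes scaled by the trimmed mean of M-values (TMM). In scramble cells LONP1 stood at 221, 225 and 213 CPM in the Ctrl libraries, at 221, 229.8 and 196 CPM in the HS libraries and at 224, 196 and 236 CPM in the HS+REC libraries. In silenced cells it stood at 19.2, 22.3 and 19.3 CPM in Ctrl, at 11.8, 11.6 and 11.8 CPM in HS and at 27.2, 25.3 and 28.8 CPM in HS+REC. All 9 silenced libraries lay below all 9 scramble libraries. Within the silenced cells the 3 HS libraries were the lowest, the 3 Ctrl libraries came next and the 3 recovery libraries were the highest, with no overlap between these groups. LONP1 thus rose between heat and recovery in silenced cells, by a log2 fold change of 1.21 (standard error 0.08, false discovery rate (FDR) 1.93e-10). In scramble cells the log2 fold change was 0.02 (FDR 0.875), and the test of the difference between the siRNA arms gave 1.19 (standard error 0.11, FDR 3.53e-06).

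The libraries held the transcripts of an epithelial colon line. Of 13 colon epithelium markers 9 were tested, and their summed level ran from 8740 to 12200 CPM across the 6 libraries, with a mean of 11800 CPM in HS and 9890 CPM in recovery. KRT8, an epithelial keratin, was the most abundant at a mean of 5620 CPM. The tested markers did not move together: the keratins KRT8, KRT18 and KRT19 had log2 fold changes of -0.32, -0.22 and -0.28, CDH1 (cadherin) -0.38 and VIL1 (villin) -0.25, all lowered, while the stem cell markers LGR5 and ASCL2 were raised at 0.47 (FDR 0.000653) and 0.35 (FDR 0.0269), and CDX2 and EPCAM had values of 0.25 (FDR 0.0614) and 0.15 (FDR 0.0659). The intestinal factor CDX1 was at 0 in all 6, and KRT20, CEACAM5 and CEACAM6, markers of differentiated colon cells, had mean levels of 0.824, 0.804 and 0.701 CPM. Of 5 leukocyte markers 2 were tested, with sums of 4.36 to 5.78 CPM (mean 4.72 in HS and 4.92 in recovery), LYZ the most abundant at 3.26 CPM, PTPRC at a mean of 0.00839 CPM and CD3E at 0.0126 CPM. The 4 endothelial markers summed to between 0.932 and 1.27 CPM (mean 1.11 in HS and 1.05 in recovery), with none tested, VWF the most abundant at 0.734 CPM and KDR at 0 in all 6. The 6 fibroblast markers, 3 of them tested, summed to a mean of 28.5 CPM in HS and 47.9 CPM in recovery, within 26.2 to 48.5 CPM. COL1A1, a collagen chain, was the most abundant of these and rose from 13.3, 17.3 and 18.8 CPM to 33.97, 34.2 and 31.8 CPM (log2 1.02, FDR 6.45e-08), and the other tested markers of this type, LUM and PDGFRB, had log2 fold changes of 0.27 (FDR 0.0471) and 0.28 (FDR 0.256). COL3A1 was at 0 in all 6, COL1A2 at a mean of 0.0209 CPM and DCN at 0.0546 CPM. In bulk RNA, fewer cells of a type and less RNA per cell cannot be told apart.

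During the hour at 37 °C the silenced cells lost most of their FOS, EGR1, EGR2 and EGR3 transcript, gained further chaperone transcripts such as HSPH1, HSPA4L and CHORDC1, and gained genes of the stress and metal responses such as HERPUD1, VLDLR and MT1G. With a limit of 0.05 on the FDR and of 2-fold on the size of the change, 199 genes were raised (1.6% of the genes tested) and 91 were lowered (0.732%). Without the fold limit 1998 genes were raised (16.1%) and 2046 lowered (16.4%), of which 1408 and 1595 changed by less than 1.5-fold. The balance varied with the scaling: 2092 were raised and 1940 lowered with size factors of RLE type, and 1772 and 2399 on library size alone. Each list count below stands beside the shares of 16.1% and 16.4%. The median log2 fold change over all genes tested was -0.02. Among the 199 raised genes the median was 1.23, and their median level was 4.45 CPM in Ctrl, 3.28 CPM in HS and 9.72 CPM in recovery. Among the 91 lowered genes the median was -1.26, and their median level was 9.36 CPM in Ctrl, 20.3 CPM in HS and 8.35 CPM in recovery. Every recovery library lay above every HS library for 2458 genes and below for 2605 genes. These included all 199 of the raised genes and 90 of the 91 lowered genes. The separation is read from the same values as the calls, so it adds no separate support to them. With so few libraries per group, some genes separate in this way by chance.

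**Figure D1:**
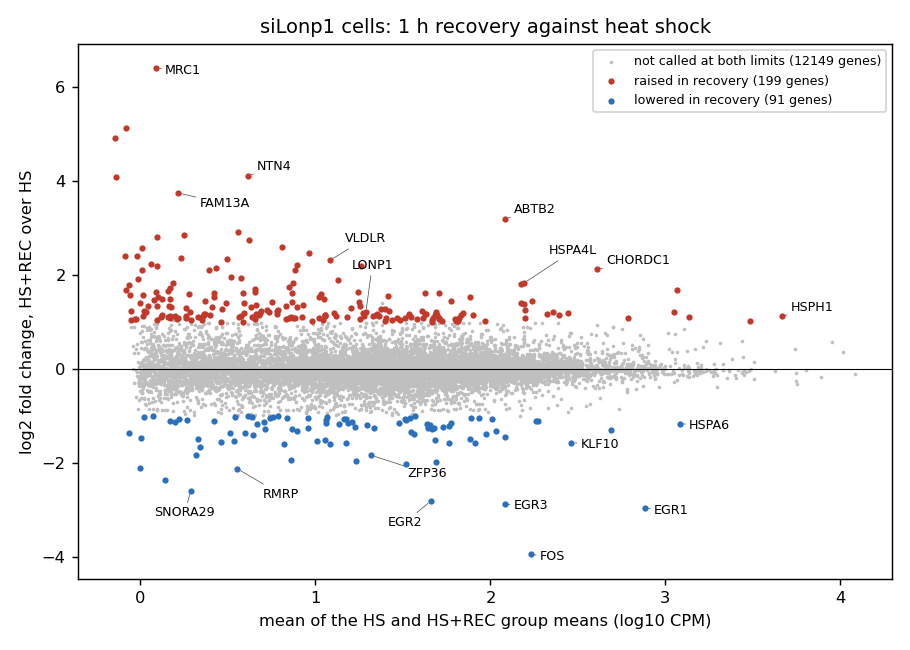
Mean level of each tested gene over the HS and HS+REC groups of siLonp1 cells (log10 CPM, horizontal) against its log2 fold change in recovery (vertical), with 1 point per gene. The 199 raised genes (red) reach 6.41 at MRC1, and the 91 lowered genes (blue) reach -3.95 at FOS.

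Of the 199 raised genes 45 were above 1 CPM in recovery libraries only, so they passed the filter through that group and were not tested when a recovery library was left out. MRC1, NTN4, FAM13A, CHRNA2, TMPRSS9 and FAM149A are among them, and 139 genes were raised when CPM above 1 was required in all 6 libraries. MRC1, which encodes the macrophage mannose receptor, had 3 counts summed over the 3 HS libraries and 296 over the 3 recovery libraries, a ratio of 95.2 with a 95% counting interval of 32.3 to 464. The interval covers counting error only, and MRC1 had no count in the Ctrl siLonp1 libraries. Its log2 fold change of 6.41 was 5.88 without HS library 1 and 7.28 without HS library 2. NTN4 (chr12:95657807-95791155), which encodes a secreted netrin of basement membranes, stood at 0.283, 0.685 and 0.378 CPM after heat and at 7.55, 8.66 and 7.16 CPM after recovery. The recovery libraries were close to each other and far above every HS library, and the rise was 17.3-fold (log2 4.12, standard error 0.20, FDR 6.65e-13). FAM13A, which encodes a signalling protein, went from 0.231, 0.237 and 0.202 CPM to 3.56, 3.399 and 2.17 CPM (log2 3.75, FDR 1.45e-10). Its Ctrl libraries, at 0.0758, 0.0737 and 0.0506 CPM, lay below both heated groups.

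ABTB2 (chr11:34150987-34358010), which encodes an ankyrin repeat and BTB domain protein, was high only after recovery. It stood at 25.1, 23.2 and 21.4 CPM in Ctrl and 21.4, 23.7 and 26.2 CPM in HS, and at 239, 227 and 191 CPM in recovery. Ctrl and HS overlapped, and all 3 recovery libraries were several times higher (log2 3.20, standard error 0.11, FDR 1.47e-15). MIR17HG, the host transcript of a microRNA cluster, showed another course: 6.77, 7.44 and 7.17 CPM in Ctrl, 1.13, 0.659 and 0.731 CPM in HS and 4.299, 6.77 and 8.05 CPM in recovery. It was low only in the HS libraries, and in recovery it returned to a range that included the Ctrl values (log2 2.91, FDR 1.23e-09).

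SHC4, an adaptor of receptor tyrosine kinases, went from 0.848, 1.34 and 1.03 CPM to 7.74, 8.11 and 5.96 CPM (log2 2.76, FDR 2.6e-11). CACNA1G, a T-type calcium channel subunit, stood at 0.177, 0.0737 and 0.152 CPM in Ctrl, 2.54, 3.003 and 2.85 CPM in HS and 18.96, 15.6 and 11.9 CPM in recovery (log2 2.47, FDR 4.93e-11). For both genes the lack of overlap between HS and recovery libraries was a condition of being named, and CACNA1G stepped up at both transitions. CHRNA2, a nicotinic receptor subunit, had no count in Ctrl, 0.334, 0.422 and 0.529 CPM in HS and 3.63, 3.32 and 2.396 CPM in recovery (log2 2.86). DHRS2, a short-chain dehydrogenase, rose by 2.59 on the log2 scale, FAM149A by 2.37 and MT1H, a metallothionein, by 2.33. TMPRSS9, a membrane serine protease, rose by 2.81, and by 3.47 when HS library 3, the highest of its group, was left out.

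HSP70 and HSP110 chaperones did not move as a block. HSPH1, an HSP110 protein that exchanges nucleotide on HSP70, already stood far above Ctrl (249, 245 and 263 CPM) after heat, at 2914, 2849 and 2948 CPM, and reached 6333, 7201 and 5407 CPM in recovery. All 3 recovery libraries lay above all 3 HS libraries, with a log2 fold change of 1.12 (standard error 0.08, FDR 2.61e-10). Its relative HSPA4L ran from 18.2, 18.9 and 19.8 CPM in Ctrl through 66.4, 65.999 and 71.9 CPM to 224, 273 and 228 CPM (log2 1.83, FDR 6.65e-13), and HSPA4, from the same family, rose by 0.65. HSPA6, a strictly inducible HSP70, went the other way: from 3.11, 1.99 and 2.304 CPM in Ctrl it stood at 1674, 1649 and 1706 CPM in HS and at 1011, 759.7 and 470.4 CPM in recovery. The recovery libraries were all below the HS libraries but spread widely, with replicate 3 the lowest, and the log2 fold change was -1.17 (standard error 0.18, FDR 2.55e-05). HSPA6 has a near-identical copy, HSPA7, so its reads are uncertain to that extent.

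The inducible HSP70 genes HSPA1A and HSPA1B are also near-identical copies, and the split of reads between them is uncertain. HSPA1A rose from 2121, 2086 and 2351 CPM to 3902, 3178 and 2786 CPM (log2 0.59, FDR 1.77e-05). HSPA1B stood at 2906, 3013 and 3133 CPM and then at 4103, 3451 and 2510.0 CPM, so its groups overlapped because recovery replicate 3 was the lowest of all 6 (log2 0.15, FDR 0.312). Without that library the HSPA1B value was 0.33 (FDR 0.00218), and that of HSPA1L, which lies beside them, was 0.24 (FDR 0.0193) in place of 0.08 (FDR 0.563). The constitutive HSPA8 rose by 0.37 from an HS mean of 9028 ± 502 (SD, n = 3) CPM, and HSPA13 by 0.87, while HSPA14 fell by 0.30. Of the 12 tested members of this list 7 were raised and 2 lowered, against 16.1% and 16.4% of all genes, and their median log2 fold change was 0.48 against -0.02.

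Cochaperones of HSP70 and HSP90 mostly gained transcript. The J-domain genes DNAJB6, DNAJA4 and DNAJA1, which deliver clients to HSP70, rose by 0.94, 0.73 and 0.59 on the log2 scale. DNAJB1, the main J-domain partner of inducible HSP70, stood at 6535, 6308 and 6325 CPM in HS and at 7569, 6574 and 4821 CPM in recovery, where the groups overlapped and the log2 fold change was -0.02 (FDR 0.934). Of 11 J-domain genes 6 were raised and 0 lowered by edgeR, with a median of 0.46, and 0 were lowered by DESeq2 or at an unadjusted p under 0.05, while 2 were lowered without recovery library 2. Among 15 genes of HSP90 and its cochaperones 9 were raised and 2 lowered, beside 16.1% and 16.4% of all genes. Their median was 0.58. PTGES3 (p23), which stabilises closed HSP90, stood at 642, 668 and 705 CPM in Ctrl, 704, 647 and 664 CPM in HS and 1559.6, 1690.1 and 1418 CPM in recovery. Heat alone left it within the Ctrl range, and every recovery library was above (log2 1.21, FDR 5.18e-12). FKBP4, an immunophilin of steroid receptor complexes, rose by 1.11, AHSA1, the activator of the HSP90 ATPase, by 0.85, and the HSP90 genes HSP90AA1 and HSP90AB1 by 0.58 and 0.43.

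CHORDC1, a zinc-binding HSP90 cochaperone, had the largest rise in these chaperone lists. It stood at 103, 116 and 110.1 CPM in Ctrl, 154, 137 and 165 CPM in HS and 637, 707 and 638 CPM in recovery. HS libraries were above Ctrl, and the recovery libraries were all far above both, with a log2 fold change of 2.12 (standard error 0.08, FDR 2.96e-15). Its promoter is shown because the gene rose with other chaperones and its window holds heat shock elements, the sites HSF1 is known to bind. It was chosen after its values and its sequence were seen. The 250 bases before the RefSeq start (GRCh38.p14, chr11:90223050-90223299, minus strand, 5′ to 3′) follow, with capitals marking each match.
CHORDC1 promoter: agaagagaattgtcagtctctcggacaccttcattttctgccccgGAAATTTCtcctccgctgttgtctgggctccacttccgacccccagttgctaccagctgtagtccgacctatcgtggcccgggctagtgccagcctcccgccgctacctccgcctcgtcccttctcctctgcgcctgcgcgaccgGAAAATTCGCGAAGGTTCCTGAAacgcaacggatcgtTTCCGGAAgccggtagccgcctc
Bases 60 to 38 before the start hold 3 overlapping matches to a heat shock element of 3 alternating units, made of the overlapping forms GAANNTTC and TTCNNGAA, and the capitals at 205 to 198 and at 23 to 16 mark a further GAANNTTC and a further TTCNNGAA. Searched on both strands, the element was found in 5 of the 147 genes raised 2-fold that have a RefSeq promoter (3.4%), namely ABHD3, CHORDC1, FAM149A, HSPD1 and TDRG1, and in 1 of the 67 lowered 2-fold (1.49%), HSPA6. These genes are named because the counts are small, after their values were seen. Without the fold limit the element was found in 18 of 1504 raised genes with a promoter (1.2%) and in 2 of 1573 lowered (0.127%). Among all tested genes with a promoter 42 of 9362 held it (0.449%), and among all promoters 172 of 35116 (0.49%). A match describes letters in the window and is not evidence of binding.

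**Figure D2:**
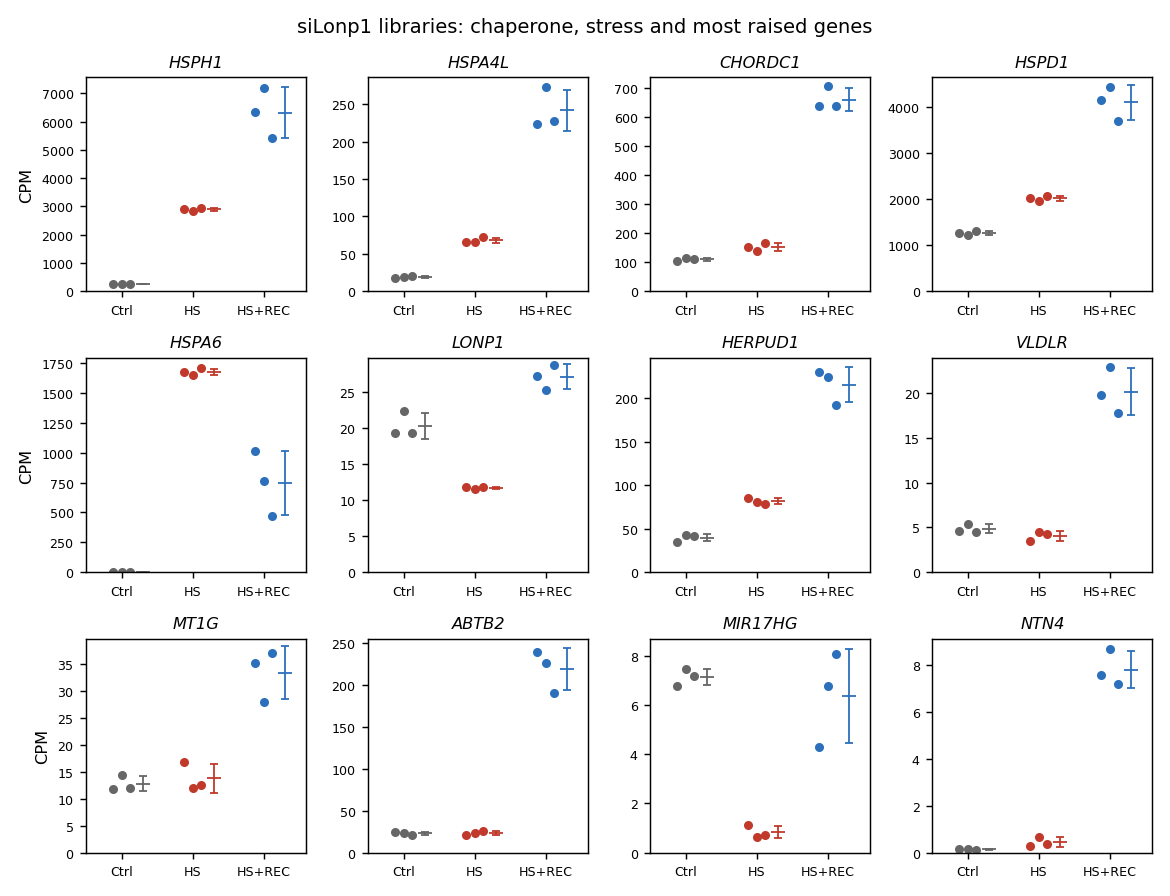
CPM of 12 genes (vertical, each panel from 0) in the Ctrl, HS and HS+REC libraries of siLonp1 cells, with 1 point per library and the mean with its SD (n = 3) beside the points. HSPH1, HSPA4L and HSPD1 step up at both transitions, ABTB2 and VLDLR only in recovery, and HSPA6 alone among the panels is lower in recovery than in HS.

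Small heat shock proteins, which hold unfolded proteins, were mostly too low to test: 4 of 10 passed, of which 3 were raised and 0 lowered by edgeR (0 by DESeq2 and 0 unadjusted), with a median of 0.68. CRYAB stood at 4.496, 4.51 and 4.18 CPM in HS and at 11.8, 9.59 and 6.17 CPM in recovery, all above HS (log2 1.07, FDR 0.000188). HSPB8 rose by 0.94 (FDR 0.00201). HSPB1, the most abundant of them, went from 1353, 1209 and 1213 CPM to 2138, 1469 and 1449 CPM (log2 0.42, FDR 0.0122), and without recovery library 1, its highest, the value was 0.23 (FDR 0.112). The BAG family, nucleotide exchange factors of HSP70, had 4 of 6 members raised and 1 lowered, beside 16.1% and 16.4% of all genes. Its median was 0.23. BAG3, which links HSP70 to autophagy, rose from 1367, 1369 and 1392 CPM to 2205, 1916 and 1555 CPM (log2 0.46, FDR 0.000257), and BAG4 fell by 0.55. The CCT chaperonin, which folds actin and tubulin, and its partner prefoldin had 7 of 14 genes raised and 0 lowered by edgeR (0 by DESeq2 and 0 unadjusted), with a median of 0.20, among them TCP1 at 0.84, CCT4 at 0.44 and CCT3 at 0.39.

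Of 9 tested factors that control the heat response 7 were not called, and neither were 8395 of all 12439 genes. HSF1 had log2 fold change 0.02 (FDR 0.866), with 71.6, 72.6 and 70.7 CPM in HS and 77.3, 65.8 and 74.8 CPM in recovery. HSF2, its partner, fell from 37.4, 39.8 and 35.6 CPM to 25.4, 26.1 and 27.3 CPM (log2 -0.52, FDR 2.16e-06), and SIRT1, a deacetylase of HSF1, fell by 0.27. In this list of 9 tested genes 0 were raised by edgeR (0 by DESeq2 and 0 unadjusted) and 2 lowered, beside 16.1% and 16.4% of all genes. The median of 0.0214 ranged from -0.00573 to 0.0344 over the ways of scaling, so that its sign was not settled.

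In the mitochondrion the matrix chaperonin rose. HSPD1, its large subunit, stood at 1255, 1231 and 1309.7 CPM in Ctrl, 2026, 1961 and 2063 CPM in HS and 4164, 4446 and 3693 CPM in recovery. Each group lay above the preceding group without overlap, and the recovery step had a log2 fold change of 1.02 (standard error 0.06, FDR 4.29e-11). HSPE1, the lid of the same complex, rose by 0.99, and HSPA9, the matrix HSP70, by 0.34. TRAP1, the mitochondrial HSP90, had a value of -0.06 (FDR 0.537) and CLPP, a subunit of another matrix protease, 0.06 (FDR 0.654). AFG3L2, an inner membrane protease, fell by 0.35. Of 16 mitochondrial chaperones and proteases, LONP1 among them, 5 were raised and 1 lowered (2 without recovery library 2). Over all genes 16.1% were raised and 16.4% lowered, and the median of this list was 0.05.

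Mitochondrial ribosomal proteins counted 6 raised and 3 lowered of 77, beside 16.1% and 16.4% of all genes. Their median was 0.03, and the lowered count was 1 when the model was fitted to the 6 libraries alone. MRPL18 was the exception in size, at 99.4, 95.9 and 96.5 CPM in Ctrl, 428, 365 and 384 CPM in HS and 955, 822 and 731 CPM in recovery (log2 1.09, FDR 1.22e-09), with 3 groups that did not overlap. MRPS6 rose by 0.51 and MRPL44 by 0.44. Nuclear genes of the respiratory chain had 2 raised and 3 lowered of 77, and their median of -0.0138 ranged from -0.0396 to 7.05e-05 over the ways of scaling. Those 2 became 1 without HS library 2, HS library 3 or recovery library 1, and those 3 became 1 without HS library 1 and 0 without HS library 2 or recovery library 2, 0 on the 6 libraries alone and 5 on library size alone.

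UBB, a polyubiquitin gene, stood at 2373, 2155 and 2134 CPM in HS and at 2947, 2503 and 2312 CPM in recovery (log2 0.22, FDR 0.0499), and the FDR was 0.13 without HS library 2, 0.139 without HS library 3, 0.249 without recovery library 1, 0.0508 without recovery library 2, 0.0663 with a replicate block in the model and 0.0613 on library size alone. The AN1-type zinc finger gene ZFAND2A, whose product binds the proteasome under stress, rose from 234, 197 and 212 CPM to 342, 307 and 269.7 CPM (log2 0.52, FDR 0.000119). Of 12 polyubiquitin and autophagy receptor genes 5 were raised (3 without HS library 3 or recovery library 2) and 2 lowered (1 without recovery library 3). Over all genes 16.1% were raised and 16.4% lowered, and the median of this list was 0.09. TAX1BP1, an autophagy receptor, rose by 0.41 and SQSTM1, another, fell by 0.28. Of 37 proteasome genes 3 were raised and 0 lowered by edgeR (0 by DESeq2 and 0 unadjusted), and the median of 0.0133 ranged from -0.0138 to 0.0264 over the ways of scaling. PSMD6, a lid subunit, had the largest of these rises at 0.51.

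HERPUD1, an endoplasmic reticulum stress gene which serves degradation at the reticulum membrane, stood at 34.7, 42.5 and 40.9 CPM in Ctrl, 85.7, 80.99 and 78.7 CPM in HS and 230.5, 224 and 193 CPM in recovery (log2 1.40, FDR 4.74e-12). XBP1, the factor spliced by ERN1, rose from 137, 125 and 127 CPM to 311, 301 and 261 CPM (log2 1.17, FDR 2.33e-11). For both genes the recovery libraries lay clear of the HS libraries. ERN1 itself rose by 0.64, the reticulum J-domain gene DNAJB9 by 1.30 and HSPA5, the reticulum HSP70, by 0.51, while HSP90B1 had a value of 0.05 (FDR 0.539) and the sensor ATF6 0.02 (FDR 0.819). Of 19 genes in this list 6 were raised and 0 lowered by edgeR (0 by DESeq2 and 0 unadjusted), beside 16.1% and 16.4% of all genes, with a median of 0.07.

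The integrated stress response, in which the factor ATF4 drives amino acid and survival genes, had 13 of 21 members raised and 4 lowered. Over all genes 16.1% were raised and 16.4% lowered, and the median of this list was 0.47. VLDLR, a lipoprotein receptor in this list, stood at 4.57, 5.402 and 4.51 CPM in Ctrl, 3.42, 4.51 and 4.23 CPM in HS and 19.8, 22.9 and 17.8 CPM in recovery (log2 2.32, FDR 7.99e-13). Heat alone left it near Ctrl, and the recovery libraries were all several times higher. SESN2, a stress sensor that restrains mTORC1, ran from 5.002, 4.62 and 6.68 CPM in Ctrl through 39.7, 38.4 and 38.8 CPM to 126, 113 and 99.8 CPM (log2 1.54, FDR 7.43e-11). STC2, TRIB3, CEBPB and CHAC1 rose by 1.16, 0.98, 1.05 and 0.85, and the amino acid transporters SLC7A5 and SLC3A2 by 0.76 and 0.47. Not all members followed. ATF4 fell from 868, 829.6 and 811 CPM to 686, 635 and 623 CPM (log2 -0.37, FDR 5.94e-06), and DDIT4, an mTORC1 inhibitor, fell from 399, 357 and 348 CPM to 259, 212 and 147 CPM (log2 -0.84, FDR 8.34e-05). For DDIT4 recovery replicate 3 was the lowest, and all 3 stayed above the Ctrl libraries at 10.9, 15.5 and 14.8 CPM. PPP1R15A, which directs eIF2 dephosphorylation, fell by 0.37, ATF5 fell by 0.51, and ASNS, asparagine synthetase, had a value of 0.08 (FDR 0.643). ATF3 stood at 29.2, 28.03 and 27.2 CPM and at 39.2, 36.6 and 19.98 CPM (log2 0.18, FDR 0.412), and at 0.44 (FDR 0.00254) without recovery library 3.

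Metallothioneins, small proteins that bind zinc and copper, mostly rose: 7 of 8 tested members were raised and 0 lowered by edgeR (0 by DESeq2 and 0 unadjusted), with a median of 1.15. MT1G stood at 11.9, 14.4 and 12.1 CPM in Ctrl, 16.9, 12.1 and 12.6 CPM in HS and 35.3, 27.9 and 37.2 CPM in recovery (log2 1.27, FDR 1.88e-08). MT2A stood at 375, 316 and 321 CPM and at 614, 532 and 567 CPM (log2 0.76, FDR 2.54e-08). In both the recovery libraries lay above all others, and for MT1G the HS libraries overlapped Ctrl. MT1M, MT1F and MT1E rose by 1.63, 1.24 and 1.06, where MT1M was above 1 CPM in recovery libraries only, and MT1A had a value of 0.04 (FDR 0.865). These genes are close copies of each other, so the assignment of reads among them is uncertain. NRF2 targets, which answer oxidants, had 6 of 15 raised and 1 lowered (0 without recovery library 2), beside 16.1% and 16.4% of all genes. Their median was 0.13. The cystine transporter SLC7A11 rose by 0.74 and the haem oxygenase HMOX1 by 0.49.

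Among 13 p53 targets 3 were raised and 4 lowered (2 without recovery library 2), beside 16.1% and 16.4% of all genes. Their median was -0.05. BBC3, a cell death gene, rose from 1.62, 1.63 and 1.46 CPM to 3.39, 2.67 and 3.11 CPM (log2 0.96, FDR 7.95e-06) and TP53INP1 fell from 2.59, 2.79 and 3.0999 CPM to 2.01, 1.64 and 1.198 CPM (log2 -0.80, FDR 0.000656). MDM2, the ligase of p53, fell by 0.32. CDKN1A, the cell cycle inhibitor p21, stood at 23.8, 23.1 and 20.7 CPM and at 32.3, 27.9 and 22.4 CPM (log2 0.29, FDR 0.0424). Its groups overlapped, and the FDR was 0.068 without HS library 2, 0.159 without HS library 3, 0.238 without recovery library 1, 0.0835 without recovery library 2, 0.0572 with a replicate block and 0.0538 on library size alone.

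The 4 deepest falls were in immediate early genes. FOS (chr14:75278828-75282230), an AP-1 subunit, stood at 5.81, 4.96 and 5.04 CPM in Ctrl, 304, 332 and 321 CPM in HS and 26.3, 19.8 and 15.6 CPM in recovery. All 3 recovery libraries were far below all 3 HS libraries and still above all 3 Ctrl libraries, and the fall from HS was 15.5-fold (log2 -3.95, standard error 0.12, FDR 4.63e-16). EGR1 (chr5:138465479-138469303), a zinc finger factor induced by growth signals, stood at 69.4, 77.3 and 62.8 CPM in Ctrl, 1212, 1458 and 1384 CPM in HS and 209, 168 and 142 CPM in recovery. The order of the groups was the same as for FOS, with no overlap (log2 -2.96, standard error 0.12, FDR 1.3e-14). Its relatives followed: EGR3 went from 196, 235 and 204 CPM to 33.2, 31.4 and 21.9 CPM (log2 -2.88) and EGR2 from 71.5, 86.3 and 82.1 CPM to 14.3, 11.7 and 8.03 CPM (log2 -2.81).

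The promoters of FOS, EGR1 and NTN4 are shown because these genes had the deepest falls and the largest rise among genes with a RefSeq promoter. Each is the 250 bases before the start from RefSeq (GRCh38.p14), 5′ to 3′: FOS at chr14:75278578-75278827, plus strand, EGR1 at chr5:138465229-138465478, plus strand, and NTN4 at chr12:95791156-95791405, minus strand, the first of its 2 entries.
FOS promoter: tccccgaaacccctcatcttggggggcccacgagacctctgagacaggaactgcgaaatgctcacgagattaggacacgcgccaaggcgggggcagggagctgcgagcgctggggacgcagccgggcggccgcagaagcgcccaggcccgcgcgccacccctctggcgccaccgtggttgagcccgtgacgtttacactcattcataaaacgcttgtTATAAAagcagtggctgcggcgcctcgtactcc
EGR1 promoter: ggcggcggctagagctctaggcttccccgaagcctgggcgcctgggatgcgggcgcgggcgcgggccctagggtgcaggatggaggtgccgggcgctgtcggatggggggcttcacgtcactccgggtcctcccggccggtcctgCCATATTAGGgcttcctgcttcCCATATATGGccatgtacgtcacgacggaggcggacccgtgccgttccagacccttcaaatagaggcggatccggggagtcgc
NTN4 promoter: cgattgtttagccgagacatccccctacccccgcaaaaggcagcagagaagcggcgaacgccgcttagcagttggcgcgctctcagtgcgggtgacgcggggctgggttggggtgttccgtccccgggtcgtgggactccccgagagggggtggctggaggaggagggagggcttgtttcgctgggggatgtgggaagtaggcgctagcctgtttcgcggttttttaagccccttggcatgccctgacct
Capitals mark the TATA box TATAAA in FOS, 33 to 28 bases before the start, and in EGR1 a pair of matches to the serum response element (CArG box), at 105 to 96 and at 83 to 74. FOS also holds 1 GC box (GGGCGG), which is not marked, and none of the motifs searched was found in the NTN4 window shown, while the window of its other entry holds GAANNTTC and the GC box, which count in the shares below. The CArG box was searched after the values were seen, and was found in 6 of the 67 genes lowered 2-fold that have a promoter (8.96%), namely BARD1, C9orf72, CXCR4, EGR1, EGR2 and PDGFA, in 1 of 147 raised 2-fold (0.68%), GPR183, in 145 of 9362 tested (1.55%) and in 454 of all 35116 (1.29%). BARD1, C9orf72, PDGFA and GPR183 were named after their values were seen. No CArG box was found for FOS, and bases more than 250 before the start were not searched. The TATA box was found in 13 of the 67 (19.4%), in 24 of the 147 (16.3%), in 738 of 9362 tested (7.88%) and in 4049 of all 35116 (11.5%). The cyclic AMP element TGACGTCA was found in 4 of the 67 (5.97%) and 4 of the 147 (2.72%), beside 366 of 9362 (3.91%) and 1.85% of all promoters, and the AP-1 site TGANTCA in 7 of the 67 (10.4%) and 16 of the 147 (10.9%), beside 648 of 9362 (6.92%) and 7.71% of all. The E-box CACGTG was found in 7 of the 67 (10.4%) and 23 of the 147 (15.6%), beside 1183 of 9362 (12.6%) and 7.26% of all, and the GC box in 54 (80.6%) and 107 (72.8%), beside 7344 (78.4%) and 45% of all. The single forms of the heat shock element were found in 5 and 15 of these genes for GAANNTTC (7.46% and 10.2%), beside 583 of 9362 (6.23%) and 6.77% of all, and in 7 and 14 for TTCNNGAA (10.4% and 9.52%), beside 773 (8.26%) and 7.74% of all. Without the fold limit the shares among 1573 lowered and 1504 raised genes with a promoter were 2.54% and 1.46% for the CArG box. They were 9.03% and 10.6% for the TATA box, 4.45% and 3.66% for TGACGTCA and 7.31% and 8.44% for TGANTCA. For CACGTG they were 13.7% and 11.8%, for the GC box 80.9% and 75.5%, for GAANNTTC 6.29% and 8.31% and for TTCNNGAA 7.63% and 10.3%. Both strands were read each time, and no test was made of these shares. The shares here and for the heat shock element above count matches in the whole promoter entry of a gene, not only in the 250 bases before the start.

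**Figure D3:**
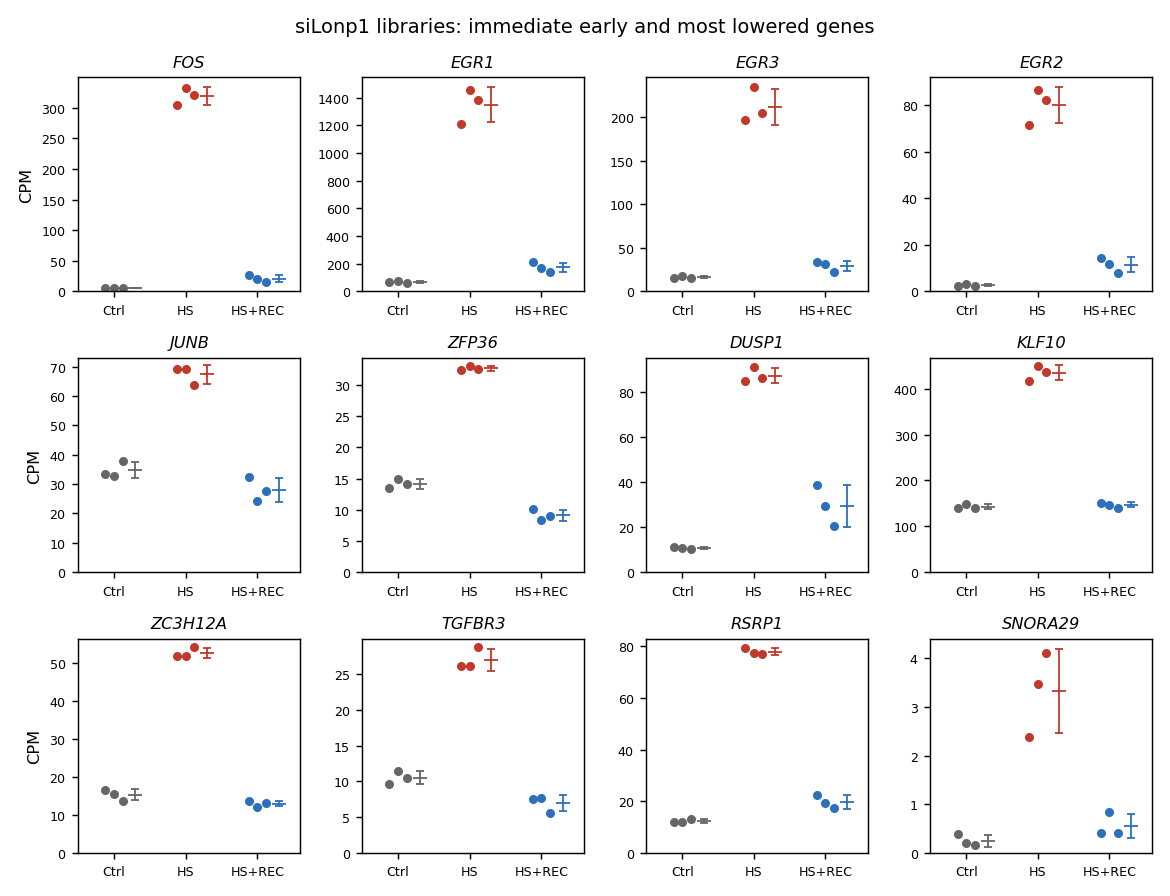
CPM of 12 genes (vertical, each panel from 0) in the Ctrl, HS and HS+REC libraries of siLonp1 cells, with 1 point per library and the mean with its SD (n = 3) beside the points. In every panel the HS libraries stand highest, and the HS+REC libraries of FOS (15.6 to 26.3 CPM) and EGR1 (142 to 209 CPM) remain above their Ctrl libraries while those of ZFP36 and TGFBR3 lie below.

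Of 11 AP-1 genes 6 were lowered and 0 raised by edgeR (0 by DESeq2, 0 unadjusted and 1 without recovery library 3), with a median of -0.26. JUNB fell from 69.2, 69.2 and 63.7 CPM to 32.3, 24.1 and 27.5 CPM (log2 -1.27, FDR 2.56e-10), FOSB fell by 0.67 and FOSL1 fell by 0.38. JUN stood at 236, 268 and 245 CPM and at 236, 204 and 186 CPM (log2 -0.26, FDR 0.0239), with overlapping groups, and its FDR was 0.118 without HS library 2, 0.0622 without recovery library 2 and 0.15 without recovery library 3. JUND had a value of 0.25 (FDR 0.267). Of 26 other immediate early genes 12 were lowered and 6 raised, beside 16.4% and 16.1% of all genes, with a median of -0.27. ZFP36 (tristetraprolin), which marks short-lived transcripts for decay, stood at 13.4, 14.95 and 14.1 CPM in Ctrl, 32.4, 33.1 and 32.6 CPM in HS and 10.03, 8.36 and 8.95 CPM in recovery, where every library lay below both other groups (log2 -1.84, FDR 9.63e-14). BTG2, NR4A1 and IER2 had values of -1.59, -1.16 and -1.10, each with an FDR of at most 1.97e-07. Against these falls PIM1, a survival kinase, rose from 1.13, 1.48 and 1.29 CPM to 4.54, 4.23 and 3.16 CPM (log2 1.62, FDR 2.04e-07), and MYC had a value of 0.08 (FDR 0.563).

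Several feedback inhibitors of the ERK pathway fell with the early genes. DUSP1, a phosphatase of MAP kinases, went from 84.8, 90.9 and 86.1 CPM to 38.6, 29.2 and 20.3 CPM (log2 -1.57, FDR 1.72e-08), and SPRY4, a receptor signalling inhibitor, from 167, 189 and 179.5 CPM to 65.996, 64.5 and 65.3 CPM (log2 -1.45, FDR 2.04e-12). The recovery libraries of DUSP1 were spread, with replicate 3 the lowest, and those of SPRY4 lay close together. DUSP2 fell by 1.21 and DUSP6 fell by 0.87. Of 17 genes in this list 8 were lowered and 3 raised, beside 16.4% and 16.1% of all genes, with a median of -0.04. Among KLF factors, zinc finger regulators of growth and differentiation, KLF10 fell from 417, 450.0 and 436 CPM to 152, 147 and 141 CPM, beside its Ctrl libraries at 139.7, 149 and 139 CPM (log2 -1.57, FDR 2.96e-15), while KLF6 rose from 58.2, 62.7 and 61.97 CPM to 128, 127 and 117 CPM (log2 1.02, FDR 2.11e-11), KLF4 by 0.93 and KLF11 by 0.46. Of 11 tested KLF genes 3 were raised and 1 lowered, beside 16.1% and 16.4% of all genes, with a median of 0.07, and the lowered count was 3 without HS library 1, 2 without recovery library 1, 2 or 3, 2 on the 6 libraries alone and 4 on library size alone.

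NF-kB targets had 8 of 15 members lowered and 1 raised, beside 16.4% and 16.1% of all genes, with a median of -0.39. NFKBIE, an inhibitor of NF-kB, fell from 14.2, 13.4 and 12.9 CPM to 8.34, 6.45 and 6.81 CPM (log2 -0.91, FDR 2.33e-06), while NFKBIA, another inhibitor, was the member that rose, from 17.6, 18.5 and 16.8 CPM to 31.6, 26.8 and 26.2 CPM (log2 0.68, FDR 4.36e-07). The chemokine CXCL1 fell by 0.80 and TNFAIP3, which ends NF-kB signalling, fell by 0.50, whereas the chemokine CXCL8 had a value of 0.04 (FDR 0.825).

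ZC3H12A, an endoribonuclease that degrades inflammatory transcripts, stood at 16.7, 15.5 and 13.8 CPM in Ctrl, 52, 52.1 and 54.3 CPM in HS and 13.6, 12.2 and 13.3 CPM in recovery (log2 -2.02, FDR 4.02e-15). UBD, a ubiquitin-like modifier, stood at 2.48, 2.63 and 3.39 CPM in Ctrl and 2.21, 2.19 and 2.596 CPM in HS, which overlapped, and at 0.311, 0.378 and 0.663 CPM in recovery (log2 -2.37, FDR 1.97e-08). It passed the filter through the HS libraries only, and with no filter the FDR was 2.04e-11. CXCR4, a chemokine receptor, fell from 5.704, 4.77 and 4.79 CPM to 1.74, 1.91 and 1.61 CPM (log2 -1.53, FDR 1.49e-08).

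TGF-beta and BMP targets had 6 of 12 lowered and 1 raised (0 without recovery library 3), beside 16.4% and 16.1% of all genes. Their median was -0.265. TGFBR3 (betaglycan), a coreceptor for TGF-beta, stood at 9.62, 11.5 and 10.4 CPM in Ctrl, 26.1, 26.1 and 28.8 CPM in HS and 7.48, 7.65 and 5.63 CPM in recovery. Heat libraries were the highest and recovery libraries the lowest of the 3 groups, with no overlap (log2 -1.96, standard error 0.10, FDR 6.65e-13). ID1, an inhibitor of differentiation factors, fell from 69.7, 61.1 and 65.02 CPM to 29.9, 23.3 and 27.99 CPM (log2 -1.27, FDR 1.55e-09). Clock genes had 6 of 16 raised and 4 lowered, beside 16.1% and 16.4% of all genes, with a median of -0.02: BHLHE41, a repressor, rose by 1.16, DBP by 0.67, NFIL3 by 0.64 and PER2 by 0.60. BHLHE41 was above 1 CPM in recovery libraries only.

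RSRP1, an arginine and serine rich protein outside the lists counted here, stood at 11.999, 11.8 and 13.2 CPM in Ctrl, 79.5, 77.4 and 76.9 CPM in HS and 22.5, 19.2 and 17.3 CPM in recovery (log2 -1.99, FDR 3.46e-14). CLK1 and CLK4, kinases of splicing factors, fell from 209, 179.8 and 203 CPM to 111, 109 and 76.3 CPM (log2 -0.997, FDR 1.73e-07) and from 26.7, 23.1 and 24.9 CPM to 16.4, 15.9 and 13.9 CPM (log2 -0.69, FDR 8.7e-07). Their recovery libraries lay between Ctrl and HS. The related CLK2 and CLK3 rose by 0.81 and 0.53, and of 7 kinases 2 were raised and 2 lowered, beside 16.1% and 16.4% of all genes, with a median of -0.02. Of 13 SR proteins and TRA2 factors, which choose splice sites, 4 were lowered and 1 raised (2 without recovery library 3). Over all genes 16.4% were lowered and 16.1% raised, and the median of this list was -0.05. SRSF5 fell by 0.54, SRSF6 fell by 0.28 and SRSF8 rose by 0.33. Paraspeckle and nuclear long RNA genes had 2 of 8 raised and 0 lowered by edgeR (0 by DESeq2 and 0 unadjusted), with a median of 0.03, TARDBP at 0.30 being the larger, and 1 was raised without HS library 2, HS library 3 or recovery library 1, on library size alone, on the 6 libraries alone and with a replicate block. PSPC1 is the gene that lost the call, as it did with no filter on low counts (FDR 0.0985).

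Small nuclear and nucleolar RNA genes were looked at as a group after their values were seen. They are short, lack a stable poly(A) tail and often lie inside a host gene on the same strand, where reads of the gene and of its host cannot be told apart. Of 35 tested 13 were raised and 7 lowered, beside 16.1% and 16.4% of all genes, with a median of 0.24. The raised count was 6 without recovery library 2 and 3 without recovery library 3, and 7 of the 13 were not tested when a recovery library was left out. The lowered count was 4 without HS library 1, and 2 of the 7 were not tested when an HS library was left out. SNORA29, inside TCP1 on the minus strand of chr6, went from 2.39, 3.48 and 4.11 CPM to 0.406, 0.831 and 0.408 CPM (log2 -2.60, FDR 2.05e-07), while TCP1 had a log2 fold change of 0.84. SNORD14C, SNORD14D and SNORD14E, inside HSPA8 on the minus strand of chr11, had values of -1.67, -1.83 and -2.11, beside 0.37 for HSPA8. SNORA29 and SNORD14E passed the filter through the HS libraries only. SNORD22, inside SNHG1, rose from 0.385, 0.711 and 0.832 CPM to 1.53, 2.01 and 2.06 CPM (log2 1.53, FDR 2.27e-05), and SNHG1 had a value of -0.27 (FDR 0.005, 0.0505 without HS library 1). SNORD22 passed the filter through the recovery libraries only.

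RMRP and RPPH1, the RNAs of the RNase MRP and RNase P enzymes, both fell, and with RN7SL1 and RN7SL2 they are not counted in the 35. RMRP stood at 9.25, 4.24 and 3.96 CPM in HS and at 1.72, 0.932 and 1.33 CPM in recovery (log2 -2.13, FDR 8.25e-05), and at -1.61 without HS library 1. RPPH1 stood at 14.1, 10.5 and 9.75 CPM and at 3.56, 3.05 and 2.37 CPM (log2 -1.93, FDR 5.81e-05). The signal recognition particle RNA RN7SL1 stood at 12.2, 4.56 and 5.42 CPM and at 2.82, 2.87 and 5.15 CPM (log2 -1.04, FDR 0.0259). Without HS library 1 its value was -0.464 (FDR 0.315). RN7SL2 had a value of -0.80 (FDR 0.127), and of -0.193 (FDR 0.754) without HS library 1. For RMRP, RPPH1, RN7SL1 and RN7SL2 HS library 1 was the highest of the 6. These transcripts lack poly(A) tails, so how many were captured may differ by library, which was not tested. Host genes of snoRNAs had 5 of 19 lowered (3 without HS library 1) and 1 raised, beside 16.4% and 16.1% of all genes. Their median was -0.07, SNHG12 at -0.79 and SNHG17 at -0.39 being among the falls.

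Zinc finger genes with a ZNF symbol formed the largest list, and 154 of 388 tested were lowered and 44 raised, beside 16.4% and 16.1% of all genes. Their median was -0.125, and 10 were lowered by 2-fold or more against 1 raised. ZNF443 went from 10.2, 8.91 and 10.6 CPM to 2.51, 3.17 and 4.23 CPM (log2 -1.59, FDR 2.66e-08), ZNF235 from 14.9, 15.5 and 14.99 CPM to 5.25, 5.64 and 4.82 CPM (log2 -1.53, FDR 1.15e-12) and ZNF587B from 17.2, 16.9 and 16.7 CPM to 5.398, 4.61 and 7.67 CPM (log2 -1.52, FDR 1.89e-09). The recovery libraries of these genes all lay below the HS libraries, and for ZNF235 they lay below Ctrl, at 6.01, 5.82 and 5.65 CPM.

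Cytoskeleton genes driven by serum response factor had 7 of 13 lowered and 1 raised, with a median of -0.18. VCL (vinculin), an adhesion protein, stepped down from 995, 976 and 957 CPM in Ctrl to 681, 689 and 714 CPM in HS and 359, 388 and 409 CPM in recovery (log2 -0.85, FDR 1.07e-09). TAGLN fell from 70.5, 57.7 and 65.9 CPM to 38.9, 30.97 and 35.6 CPM (log2 -0.88, FDR 5.44e-08), ZYX (zyxin) fell by 0.75, MYL9 fell by 0.65 and the actin gene ACTG1 fell by 0.25, while FLNA, filamin A, rose by 0.37. Of 21 G2/M genes 8 were lowered (5 without recovery library 2) and 1 raised (0 without HS library 2 or recovery library 2). The shares over all genes were 16.4% lowered and 16.1% raised. The median was -0.17, and the mitotic kinesins KIF2C and KIF20A had values of -0.48 and -0.28. Of 20 G1/S genes 3 were raised and 2 lowered (1 without recovery library 2 and 4 without recovery library 3). Over all genes 16.1% were raised and 16.4% lowered, and the median of this list was -0.02. Its largest rise was in CDC6, a licensing factor, from 90.2, 86.4 and 91.5 CPM to 158, 163 and 154 CPM (log2 0.82, FDR 5.01e-11).

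Glycolysis had 0 of 19 raised by edgeR (0 by DESeq2 and 0 unadjusted) and 3 lowered (5 without recovery library 1 or on library size alone). Over all genes 16.1% were raised and 16.4% lowered, and the median of this list was -0.10. SLC2A1, the glucose transporter, had its largest fall, from 708, 708 and 666 CPM to 503, 468 and 560.2 CPM (log2 -0.44, FDR 9.98e-06). Cholesterol synthesis had 2 of 20 raised (1 without HS library 2 or recovery library 1) and 3 lowered (1 without HS library 3). These counts stand beside the same 16.1% and 16.4% of all genes. The median was -0.09, and INSIG1, a brake on the pathway, fell by 0.52. Of 76 cytosolic ribosomal protein genes 1 was raised and 1 lowered, with a median of -0.02, and the lowered count was 0 without HS library 1, HS library 3, recovery library 2 or recovery library 3 or on the 6 libraries alone, 2 without recovery library 1 and 3 on library size alone. The raised gene, RPL36A (0.90, FDR 4.51e-05), belongs to a family with many close copies and its reads are uncertain. Replication-dependent histones, whose transcripts lack poly(A) tails, had 7 of 73 genes tested, 1 raised and 0 lowered by edgeR (0 by DESeq2 and 0 unadjusted), with a median of 0.19, and the raised count was 0 without HS library 2 or recovery library 1 and 2 without HS library 1 or recovery library 2, by DESeq2 and with RLE scaling.

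A list of genes measured by quantitative PCR was picked by the study on these same samples, so it is not independent of them. In it 3 of 8 tested genes were raised (5 without recovery library 3) and 2 lowered, beside 16.1% and 16.4% of all genes. The median was 0.13. Of 8 reference genes 0 were raised by edgeR (0 by DESeq2, 1 unadjusted and 1 without HS library 1) and 2 lowered, with a median of -0.10, and the lowered count was 1 without any of HS libraries 1, 2 and 3 and recovery libraries 2 and 3 and on the 6 libraries alone. RPS18 stood at 1862, 1618 and 1578 CPM and at 1623, 1535 and 1673 CPM (log2 -0.07, FDR 0.703), GAPDH had a value of -0.09 (FDR 0.273), and TFRC, the transferrin receptor, fell by 0.42.

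**Figure D4:**
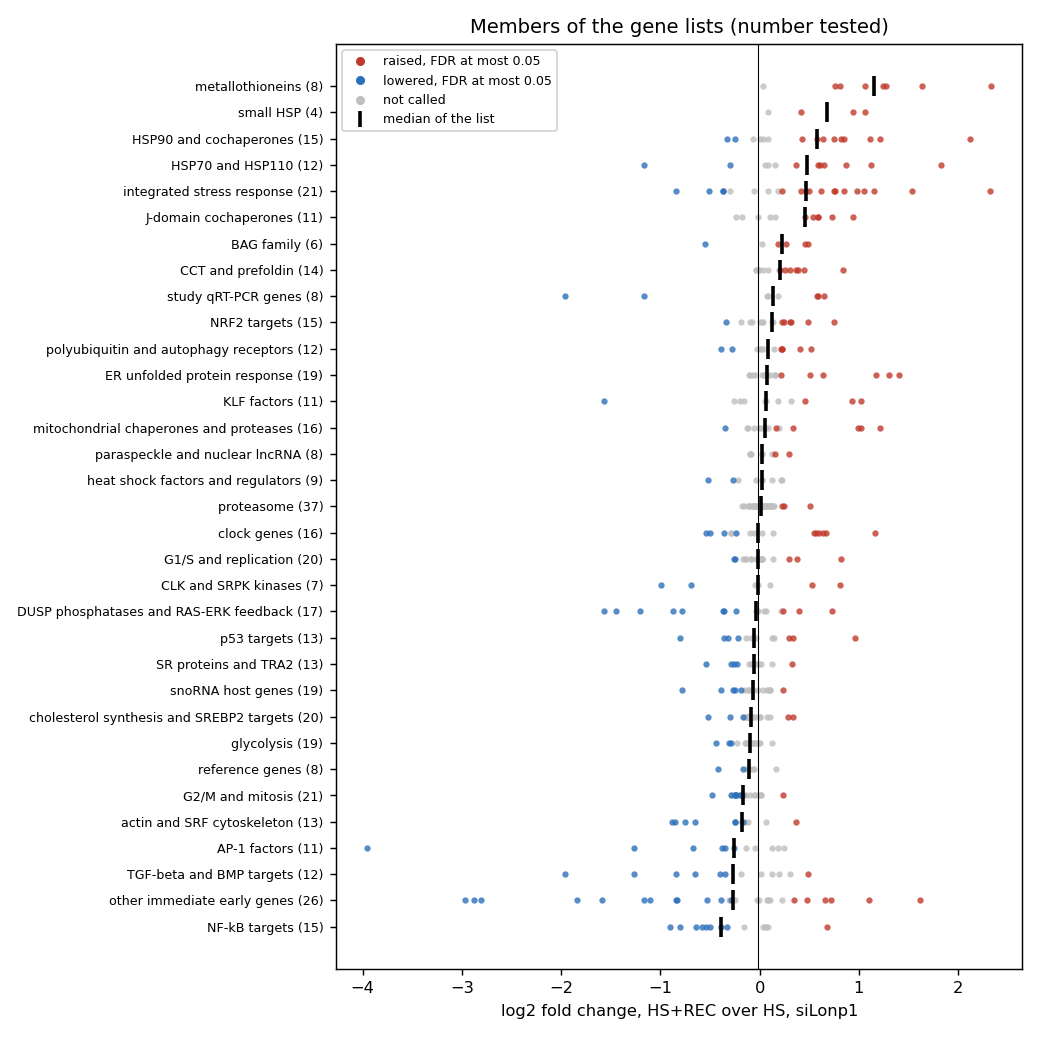
Log2 fold change in recovery (horizontal) of the tested members of each gene list (1 point per gene), ordered by the list's median (black bar), with the thin line at the median of all genes. Metallothioneins, small HSP and HSP90 lists lie to the right, with medians of 1.15, 0.68 and 0.58, and NF-kB targets and immediate early genes to the left, with medians of -0.39 and -0.27.

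Set beside unheated cells, the raised and lowered genes had different histories, although these contrasts share the HS or the recovery libraries with the main comparison and are given as values alone. For the 199 raised genes the median log2 fold change was 0.11 from Ctrl to HS and 1.55 from Ctrl to recovery. For the 91 lowered genes it was 1.07 from Ctrl to HS and -0.28 from Ctrl to recovery. Metallothioneins had medians of 0.12 and 1.35, the integrated stress response 0.60 and 1.16, and HSP70 with HSP110 1.64 and 2.74. For early genes other than AP-1 the medians were 1.11 and 0.79, and for NF-kB targets 0.33 and 0.01.

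A grouping by heat came from libraries outside this comparison, the HS and Ctrl scramble cells. Of the 366 tested genes raised by heat there at 2-fold, 117 were raised (32%), 132 were lowered (36.1%) and 117 were neither in the recovery of silenced cells. Their median was -0.03 with quartiles of -0.58 and 0.47, wider on both sides than the quartiles of -0.15 and 0.13 over all genes tested. HSPH1 and HSPA4L are among those that went on rising, FOS and EGR1 among those that fell. Of the 34 genes lowered by heat there, 29 were raised in recovery (85.3%), 2 were lowered (5.88%) and 3 were neither, with a median of 0.93.

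Recovery was also compared between silenced and scramble cells, to ask where silencing of LONP1 went with another course. The question is answered by a test of the difference between the log2 recovery changes, siLonp1 minus scramble. It found 143 genes with a larger log2 change in silenced cells (1.15%) and 37 with a smaller one (0.297%), and these counts varied with the libraries used: without HS scramble library 1 they were 69 and 18, without HS scramble library 2 74 and 24, without HS scramble library 3 225 and 58, without HS siLonp1 library 1 83 and 20, without HS siLonp1 library 3 88 and 24, and without HS+REC scramble library 3 239 and 61. Among the 143 the median log2 recovery change was 0.72 in silenced and 0.04 in scramble cells, and among the 37 it was -0.74 and -0.23. The recovery contrasts of the arms share no library. Over 12439 genes, which are not independent replicates, the changes correlated with a Pearson coefficient of 0.824 and a Spearman coefficient of 0.716. In scramble cells 1718 genes were raised (13.8%) and 1698 lowered (13.7%) without the fold limit. At 2-fold, 97 genes were raised in both arms, 48.7% of the 199 in silenced and 82.2% of the 118 in scramble cells, and 58 were lowered in both, 63.7% of the 91 and 54.7% of the 106. All these counts are of genes that passed the filter in the 6 silenced libraries. Of the 199, 45 entered through silenced recovery libraries only, and of the 91, 8 through silenced HS libraries only. Genes above 1 CPM in scramble libraries only could not enter, so scramble counts and shares are not like for like with those of silenced cells.

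Most of the strongly changed genes moved in the same direction in both arms. Of the 199 raised genes 196 had a scramble value above 0, 182 were called raised there and 35 had a larger log2 change in silenced cells by the test. Of the 91 lowered genes 89 had a scramble value below 0, 86 were called lowered there, 13 had a smaller log2 change in silenced cells by the test and 1 a larger. FOS, with 264, 280.1 and 259.8 CPM in HS and 17.7, 20.03 and 21.5 CPM in recovery of scramble cells, had a difference of -0.19 (FDR 0.699), and HSPH1 one of -0.15 (FDR 0.65), neither past the test. CHORDC1 had a difference of 0.38 (FDR 0.0673), and a missed threshold does not show that the arms acted alike.

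Several genes did pass the test of the difference. NR3C1, the glucocorticoid receptor, stood at 1.105, 0.948 and 0.932 CPM in HS and 3.94, 4.99 and 4.33 CPM in recovery of silenced cells, and at 1.32, 0.985 and 1.17 CPM and 2.18, 1.91 and 2.12 CPM in scramble cells. It rose in both arms, and more so in silenced cells, with a difference of 1.31 (standard error 0.23, FDR 0.00407). KRTAP2-3, a keratin associated gene, went from 6.29, 4.58 and 5.17 CPM to 17.9, 14.2 and 16.5 CPM in silenced and from 5.27, 4.72 and 5.91 CPM to 8.36, 6.33 and 6.26 CPM in scramble cells (difference 1.19, FDR 0.00136). ABTB2 had scramble values of 31.1, 30.9 and 23.4 CPM and 133, 146 and 161 CPM (difference 0.84, FDR 0.00254), so that the recovery level was higher in silenced cells while the HS levels overlapped. VLDLR, KLF6 and CDC6 rose more in silenced cells by 0.82, 0.57 and 0.39 (FDR 0.00823, 0.00136 and 0.00698), and DUSP6 fell less, with a difference of 0.48 (FDR 0.00254).

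In the other direction TGFBR3 stood apart. Scramble cells had 50.8, 47.8 and 45.5 CPM in HS and 30.1, 32.5 and 29.7 CPM in recovery, beside 26.1, 26.1 and 28.8 CPM and 7.48, 7.65 and 5.63 CPM in silenced cells. It fell in both arms and further in silenced cells, whose libraries lay below the scramble libraries at both times (difference -1.32, standard error 0.13, FDR 3.53e-06). UBD had 1.12, 1.37 and 1.45 CPM in HS and 1.05, 0.761 and 1.08 CPM in recovery of scramble cells, with a log2 change of -0.43 (FDR 0.137) there and a difference of -1.95 (FDR 0.00175). EGR3 fell from 116, 128 and 99.02 CPM to 27.6, 30.1 and 28.96 CPM in scramble cells, less than in silenced cells (difference -0.89, FDR 0.00396). RSRP1, ZC3H12A, CLK4 and VCL also had lower recovery changes in silenced cells, with differences of -0.72, -0.64, -0.59 and -0.57 (FDR 0.00141, 0.00175, 0.00983 and 0.00175).

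**Figure D5:**
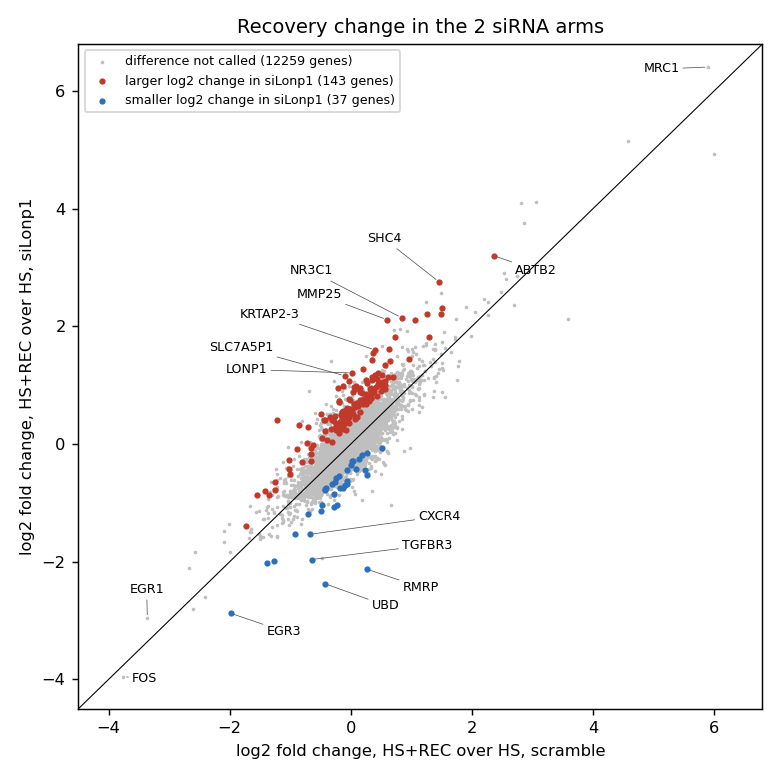
Log2 fold change of recovery over HS in scramble cells (horizontal) against the same in siLonp1 cells (vertical), with 1 point per gene and the line of equal change. The 143 genes with a larger log2 change in siLonp1 (red) lie above the line and the 37 with a smaller one (blue) below, among them NR3C1 at 2.15 against 0.84 and TGFBR3 at -1.96 against -0.64.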

How the data were processed

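The authors deposited raw counts per gene symbol for 18 libraries of SW620 cells, made by aligning stranded paired-end mRNA reads with STAR to hg38 and counting with featureCounts on UCSC genes. Strand setting, handling of multimapping reads and annotation release are not given in the sources used here. Counts of all 18 libraries were scaled by TMM and fitted with 1 mean per group by quasi-likelihood models in edgeR 4.0.16 (R 4.3.3). Contrasts were tested and adjusted by the Benjamini-Hochberg method over all 12439 genes. Replicates were not treated as paired. Alternatives covered the scaling, the gene filter, DESeq2 1.42.0, fewer libraries, a replicate block and leaving out each library. Gene lists and their members were chosen with earlier results of these data known. Named genes were the 12 largest changes per direction whose groups did not overlap and whose higher group mean reached 2 CPM, up to 4 called genes per list, 5 arm differences per direction, and LONP1, HSF1, HSF2 and RPS18, with further members of lists added. Promoters and gene positions came from RefSeq (GRCh38.p14).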

Additional observations from a re-analysis of the deposited data

Results flagged for a closer look

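In each gene below the log2 recovery change differed between silenced and scramble cells by a test of the difference itself, siLonp1 minus scramble. What makes the arms differ was not tested, and the siRNA's target was their known difference. Larger in silenced cells were NR3C1 at 1.306, KRTAP2-3 at 1.189, LONP1 at 1.188, ABTB2 at 0.841, VLDLR at 0.816, KLF6 at 0.5711, DUSP6 at 0.4795 and CDC6 at 0.3879. Smaller were UBD at -1.946, TGFBR3 at -1.319, EGR3 at -0.8898, RSRP1 at -0.7237, ZC3H12A at -0.6381, CLK4 at -0.5927 and VCL at -0.572. These 15 passed the test in each setting in which they were tested, 20 for most of them, 19 for NR3C1 and 16 for UBD, which passed the filter through the HS siLonp1 libraries only (difference -1.941, FDR 0.00025, with no filter).

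The other 7 lost the call in at least 1 setting. MMP25, a metalloproteinase, passed the filter through the recovery siLonp1 libraries only and differed by 1.516 (FDR 0.0215; 0.0131 with no filter), with FDR 0.0637 without HS scramble library 1, 0.166 without HS scramble library 2 and 0.0593 without HS siLonp1 library 1. SLC7A5P1, a near copy of a transporter gene, differed by 1.259 (FDR 0.0256), with FDR 0.0569 on the 12 libraries alone and, without 1 library, 0.112 (HS scramble 2), 0.0844 (HS siLonp1 3), 0.0652 (HS+REC scramble 2), 0.051 (HS+REC siLonp1 1) and 0.0589 (HS+REC siLonp1 3). SHC4 differed by 1.301 (FDR 0.0319), with FDR 0.0689 on the 12 libraries alone and, without 1 library, 0.127 (HS scramble 1), 0.126 (HS scramble 2), 0.0972 (HS siLonp1 1), 0.0762 (HS siLonp1 3), 0.0503 (HS+REC scramble 1) and 0.0591 (HS+REC siLonp1 2).

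RMRP differed by -2.388 (FDR 0.0282), with FDR 0.0523 by DESeq2, 0.0517 on the 12 libraries alone and, without 1 library, 0.0631 (HS scramble 1), 0.0976 (HS scramble 2), 0.0638 (HS siLonp1 1), 0.0818 (HS+REC scramble 3), 0.065 (HS+REC siLonp1 2) and 0.0578 (HS+REC siLonp1 3). Its difference was -1.88 without HS siLonp1 library 1 and -1.82 without HS+REC scramble library 3. CXCR4 differed by -0.8602 (FDR 0.0316), with FDR 0.0624 on the 12 libraries alone and, without 1 library, 0.0617 (HS scramble 1), 0.103 (HS scramble 2), 0.0958 (HS siLonp1 1), 0.0652 (HS+REC scramble 2), 0.0612 (HS+REC scramble 3) and 0.0817 (HS+REC siLonp1 3). SRSF5 differed by -0.3581 (FDR 0.0133), with FDR 0.0652 on the 12 libraries alone and 0.0578 without HS scramble library 1. TRA2A, a splicing regulator, differed by -0.4005 (FDR 0.0148), with FDR 0.0899 on the 12 libraries alone, 0.0628 without HS scramble library 1 and 0.058 without HS siLonp1 library 1.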

How the results depend on the processing

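No named gene that was called changed direction in a setting in which it was tested, while values near 0 of uncalled genes and of some list medians changed sign. The 199 raised genes became 468 without a filter on low counts 590 at a fold limit of 1.5 and 139 with CPM above 1 in all 6 libraries, and the 91 lowered genes became 451 at the 1.5 limit. The 143 genes with a larger log2 change in silenced cells became 243 with DESeq2, 73 on the 12 libraries alone and 52 at an FDR limit of 0.01, and between 69 and 239 when 1 library was left out. The 37 with a smaller change became 68, 19 and 15, and between 18 and 61. The cause of the shifts with DESeq2 and with single libraries was not tested.

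Leaving out 1 library gave 162 to 218 raised and 77 to 99 lowered genes. Of the 199 raised genes 45 were not tested without a recovery library, and of the 91 lowered 8 were not tested without an HS library. Of 208 named genes 192 were called, 183 kept their side of the threshold in all settings that tested them and 22 lost a call in at least 1. The median log2 change over all genes was -0.0159 with TMM, -0.00605 with size factors of RLE type and -0.0423 with library size alone.

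With a replicate block in the model the counts were 199 raised, 92 lowered, 1950 and 2005 without the fold limit, and 109 larger and 31 smaller in silenced cells. Libraries of HS and HS+REC with the same replicate number correlated at 0.29, 0.0937 and 0.12 after group means were removed. Those with different numbers correlated at between -0.27 and 0.168. Over all pairs of groups, same-numbered libraries correlated at between -0.4 and 0.513, with a median of -0.0451. These values do not settle whether the replicates were paired, and pairing was not assumed.

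Limits: each group has 3 libraries of 1 cell line and 1 recovery time, and the scramble and silenced cells differ in siRNA. Genes with few reads after heat have fold changes that rest on few counts. RNA levels do not separate synthesis from decay.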
